A study of Mus musculus with 2 samples.

Results

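The 8 genes described here encode 6 mouse DNA topoisomerases and a pair of enzymes that release a topoisomerase trapped on DNA. They are Top2b and Top2a (type II), Top1 and Top1mt (type IB), Top3a and Top3b (type IA), and the tyrosyl-DNA phosphodiesterases Tdp1 and Tdp2. The rule names the genes by symbol and sets no threshold on a measured value, although the choice was made with earlier results of these data known, and all 8 were present among the 19465 genes counted. Their transcripts were read in heart tissue with the Visium CytAssist assay for formalin-fixed, paraffin-embedded sections, in which pairs of probes bound to an mRNA are transferred to a slide that carries barcoded spots. Each captured molecule is counted by a molecular tag, the UMI, and a spot covers a small region that can hold several cells or parts of cells.

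Each genotype gave 1 heart section, cut at 5 μm: a control heart of genotype α-MHC-MerCreMer+/− and a TOP2B transgenic heart of genotype α-MHC-MerCreMer+/− hTOP2B LSL/−. Both genotypes carried the tamoxifen-activated MerCreMer recombinase under the cardiomyocyte promoter α-MHC, and tamoxifen was given to both as 1 intraperitoneal dose of 80 mg/kg, so recombinase and drug were shared by the groups. The transgene, present in the latter heart only, was a human TOP2B cDNA behind the CAG promoter and a floxed stop cassette at Rosa26, which the recombinase opens in cardiomyocytes. For the single-dose regimen the methods give an age of 6 weeks, while the time from dose to harvest and the sex of these animals were not given in the sources used here. With 1 section per genotype no test of genotype was possible, and every interval below covers counting error only.

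Topoisomerases relieve the twisting and tangling that arise when DNA is copied, transcribed or packed, by cutting strands, staying bound to the cut end through a tyrosine, and sealing the cut again. Type II enzymes cut both strands of the helix together, whereas type I enzymes cut a single strand. Anthracyclines hold type II enzymes in the cut state, and the heart, whose muscle cells rarely divide, is known for expressing Top2b rather than Top2a, the form that goes with cell division. When the cut is not resealed, Tdp1 and Tdp2 can hydrolyse the bond between the trapped tyrosine and the DNA end.

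The control section held 1256 spots over tissue with 14376300 UMIs, and the transgenic section 924 spots with 12953389 UMIs, at medians of 11336 and 14531 UMIs per spot. The cardiomyocyte marker list (9 of 10 genes measured) made up 51435 CPM (UMIs per 1000000 UMIs of the section) in control tissue and 53222 CPM in transgenic tissue. These close sums cover genes that moved apart, with a median log2 ratio of -0.21. In the transgenic section 6 of the 9 were lower and 3 higher (33.3%, against 63.2% of all genes with at least 20 UMIs). Des was at 3017 CPM in control and 8661 CPM in transgenic tissue, and Myl3 at 6106 and 2907 CPM. Of the other marker lists, erythroid genes summed to 2146 and 20437 CPM, fibroblast genes to 2085 and 6371 CPM, and macrophage genes to 321 and 631 CPM. The fibroblast genes were uneven, and 7 of 10 were past 1.5-fold higher (70%, against 27.4% of all genes with at least 20 UMIs). Log2 ratios were 2.68, 2.66 and 2.01 for the collagens Col1a1, Col1a2 and Col3a1. They were 0.00 for Gsn, 0.06 for Dpt and 0.42 for Lum. A sum of marker UMIs is not a count of cells. The part of these cell types in the values below was not tested beyond the comparisons of spots given beside them. Between the sections, 15236 genes with at least 20 UMIs in all had a median log2 ratio of transgenic over control CPM of 0.20, with quartiles of -0.21 and 0.64, so a ratio is also given relative to that median. The Y-linked genes Ddx3y, Eif2s3y, Kdm5d and Uty had 0 UMIs in both sections, and Xist was not analysed here. A floor of 3 counts, set in place of 0 in ratios, equals 0.209 CPM in control tissue and 0.232 CPM in the transgenic section.

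Top2b (ENSMUSG00000017485), the type II enzyme of non-dividing cells and the mouse counterpart of the transgene, was close to equal in the sections. It had 1531 UMIs in control tissue, or 106 CPM (95% Poisson interval 101 to 112), and 1318 UMIs in the transgenic section, or 102 CPM (96.3 to 107). The log2 ratio was -0.07, with an exact binomial interval of -0.17 to 0.04 that held 0 and lay below the median of all tested genes. Relative to that median Top2b stood at -0.27, and 33.1% of tested genes had a lower ratio. Mouse probes may not bind the human sequence, and the probe set was not given in the sources used here, so the Top2b row is no check of the transgene.

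Inside the control section, the 4 quadrants held Top2b at 96.2, 113, 105 and 113 CPM, and inside the transgenic section at 103, 98.3, 105 and 101 CPM. The transgenic values all lay within the range of the control quadrants, so the sections overlapped. A Top2b UMI was found in 65.2% of control spots (Clopper-Pearson interval 62.5 to 67.8) and in 72.2% of transgenic spots (69.2 to 75.1). With each spot thinned to 8134 UMIs, and 140 control and 78 transgenic spots under that depth set aside, the shares were 55.0% and 57.0%, a narrower gap.

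**Figure D1:**
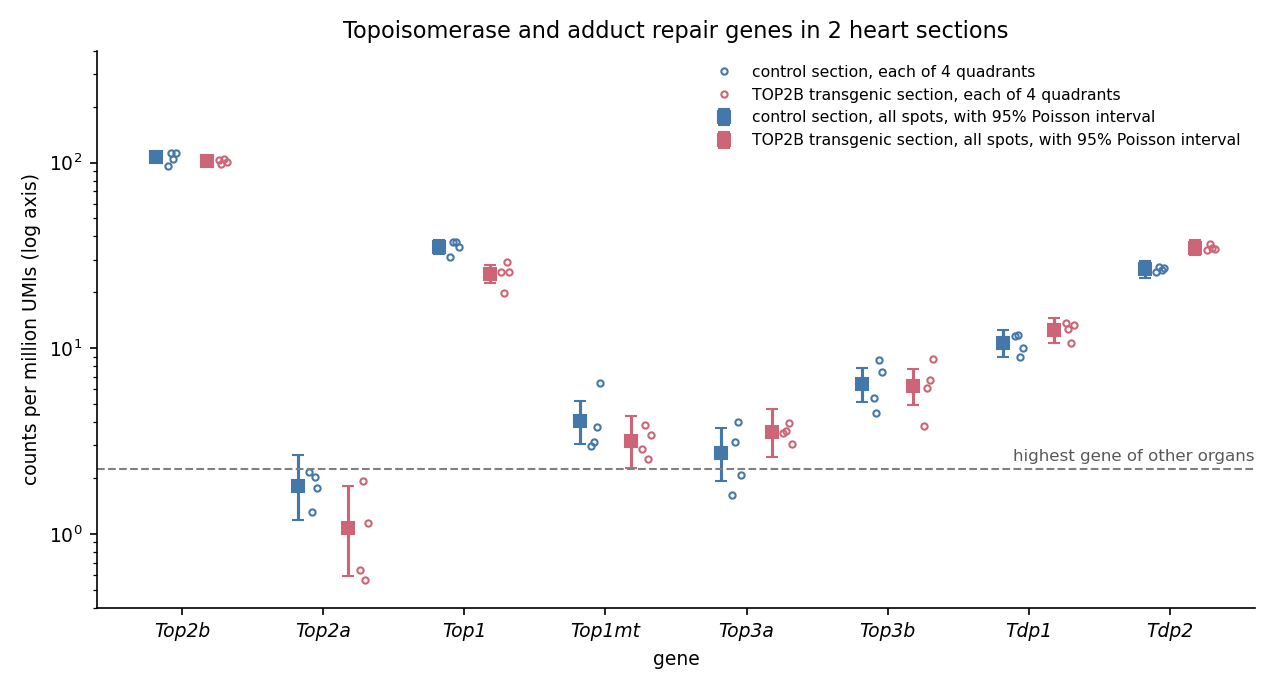
Level of each gene in CPM on a log axis, for the control section (blue) and the TOP2B transgenic section (red). Squares give all spots with the 95% Poisson interval, open circles the 4 quadrants of that section, and the dashed line the highest level of any of 12 genes of other organs in either section (2.24 CPM, Gnat1 in the transgenic section). Top2b lies near 100 CPM in both sections, Top1 quadrants are all lower and Tdp2 quadrants all higher in the transgenic section, and Top2a lies under the dashed line in both. In the control section alone the highest of the 12 genes was at 1.53 CPM, under Top2a there (1.81 CPM).

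Top2b UMIs were found in most spots of both sections, with more empty spots than an even spread would give. In the control section 392 spots held 1 Top2b UMI, 239 held 2, 123 held 3 and 65 held 4 or more, and the largest count in a spot was 8. Had every spot carried Top2b at the section's mean share, 434, 263, 113 and 53.2 spots would be expected in those classes. The corresponding transgenic counts were 293, 189, 120 and 65 spots, against 299, 211, 107 and 62.7 expected. In both sections the observed counts showed somewhat more spots without a UMI (437 against 393 expected in the control, 257 against 245 in the transgenic section) and more with 3 or above. The deposited Moran's I, a score of how alike neighbouring spots are, was -0.01 for Top2b in control tissue, above 22.0% of genes. In the transgenic section it was 0.05, above 85.0% of genes there. The median over genes was -0.0005 in control tissue and 0.0084 in the transgenic section. Fmr1, described below, had 956 transgenic UMIs and stood above 82.5% of genes there. A rank among genes of like abundance was not computed.

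**Figure D2:**
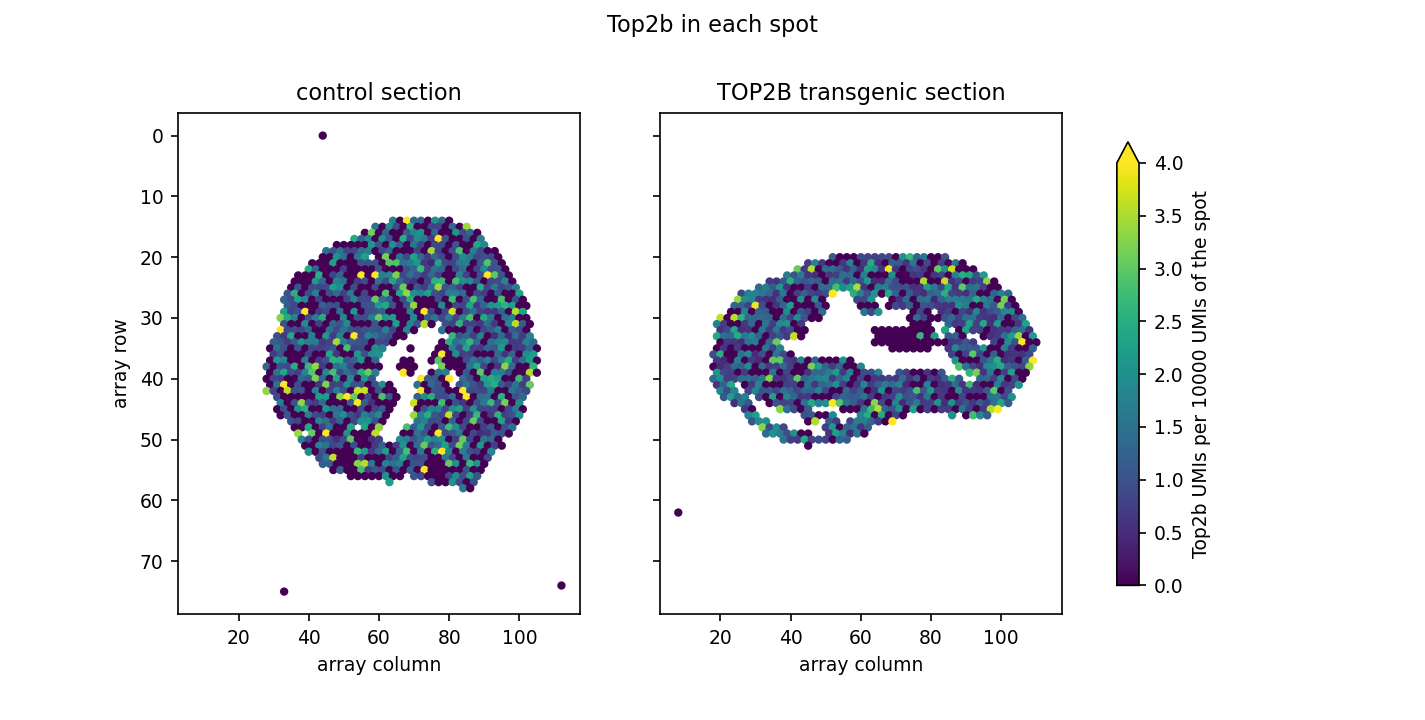
Top2b UMIs per 10000 UMIs in each spot over tissue, drawn at the spot's row and column on the capture array, control section left and TOP2B transgenic section right; colours stop at 4 and brighter spots are drawn as 4. Top2b appears across the muscle in both sections, and a compact block of spots inside the ring of transgenic tissue shows little, on a scale whose total includes erythroid UMIs.

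A block of spots in the transgenic map with little Top2b led to a comparison chosen after seeing the data, by the erythroid share of each spot. In the transgenic section 54 spots (5.84%) drew over 10% of their UMIs from erythroid genes. The overlap of these spots with the block in the map was not measured, and the cause of the block was not tested. There Top2b stood at 50.8 CPM (28.4 to 83.8) on 15 UMIs, against 103 CPM (97.4 to 109) in the remaining 870 spots. Erythroid UMIs were 54.2% of the total in the 54 spots and 0.827% in the others, which lowers the CPM of every other gene there: Top1 was at 16.9 against 25.3 CPM and Tdp2 at 23.7 against 35.1 CPM. Per 1000000 UMIs of all genes other than the erythroid list, Top2b was at 111 (62.1 to 183) in the 54 spots and 104 (98.2 to 110) in the others. On that scale the value in the 54 spots was not the lower one, with a wide interval from 15 UMIs. The same scale gave 37.0 (12.0 to 86.2) against 25.5 for Top1 and 51.7 (20.8 to 107) against 35.4 for Tdp2, on 5 and 7 UMIs. The 54 spots were also shallower, at a median of 5006 UMIs against 14756. Control tissue had 8 such spots with 1 Top2b UMI. With these spots left out of both sections the Top2b log2 ratio was -0.05 (-0.16 to 0.06).

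The 250 bases upstream of the Top2b start site are shown beside those of Top2a and Top1, to let the reader see how the promoters of the genes compared below differ. The sequences were taken from RefSeq on build GRCm38.p6, on the strand of the gene: Top2b at chr14:16364956-16365205 (+ strand), Top2a at chr11:99024190-99024439 (− strand) and Top1 at chr2:160645647-160645896 (+ strand). Capitals mark each match to CCAAT or GGGCGG on either strand, so ATTGG and CCGCCC are also in capitals, and no matches overlap.
Top2b: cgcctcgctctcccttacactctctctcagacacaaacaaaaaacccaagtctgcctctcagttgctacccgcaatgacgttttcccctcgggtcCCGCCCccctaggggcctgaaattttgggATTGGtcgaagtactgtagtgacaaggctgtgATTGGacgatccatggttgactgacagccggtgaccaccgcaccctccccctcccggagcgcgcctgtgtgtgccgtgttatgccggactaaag
Top2a: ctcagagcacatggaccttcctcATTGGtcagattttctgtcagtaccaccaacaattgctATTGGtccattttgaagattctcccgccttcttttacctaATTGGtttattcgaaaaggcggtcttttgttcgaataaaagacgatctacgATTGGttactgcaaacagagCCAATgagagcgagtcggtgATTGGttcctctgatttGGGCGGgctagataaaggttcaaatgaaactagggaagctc
Top1: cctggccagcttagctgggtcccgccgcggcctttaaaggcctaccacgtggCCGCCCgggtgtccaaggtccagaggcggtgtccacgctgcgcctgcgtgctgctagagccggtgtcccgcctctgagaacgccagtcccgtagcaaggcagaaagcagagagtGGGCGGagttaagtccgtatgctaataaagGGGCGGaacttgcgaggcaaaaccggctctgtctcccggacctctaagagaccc

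The Top2a window held CCAAT 6 times, 1 on the gene's strand and 5 on the other, at 58 to 227 bases before the start, and GGGCGG 1 time. Of 32851 RefSeq promoter windows of the same length, 33.8% held CCAAT at least once and 0.0578%, or 19 windows, held it 6 times or more. Top2b held CCAAT 2 times (10.1% of windows held it at least 2 times) and GGGCGG 1 time (32.7% at least once). In the Top1 window there were 0 matches to CCAAT and 3 to GGGCGG, and 8.47% of windows held GGGCGG at least 3 times. GC content was 57.6% for Top2b, 43.6% for Top2a and 63.6% for Top1, against a median of 52.4% over all windows. Top3b and Tdp1 also matched the table, with 1 CCAAT and 1 GGGCGG respectively. A match is a description of the letters only, and no binding was measured.

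Top2a (ENSMUSG00000020914), which separates sister chromosomes in dividing cells, was near the lower edge of what the assay could read. It had 26 UMIs in control tissue, or 1.81 CPM (1.18 to 2.65), and 14 UMIs in the transgenic section, or 1.08 CPM (0.591 to 1.81). No spot in either section held more than 1 Top2a UMI, and 2.07% of control and 1.52% of transgenic spots had any. Among 12 genes of other organs, which heart muscle should lack, the highest was Gnat1, a rod photoreceptor gene, with 22 and 29 UMIs in 1.75% and 3.03% of spots. Top2a thus lay close to a gene that heart tissue should lack, a little above Gnat1 in the control section (1.81 against 1.53 CPM) and below it in the transgenic section (1.08 against 2.24 CPM).

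The Top2a log2 ratio was -0.74 (-1.79 to 0.25), 1.67-fold lower in the transgenic section, and the interval held both 0 and the median of all tested genes. Its quadrants were at 2.16, 1.31, 2.02 and 1.78 CPM in the control and at 0.636, 1.94, 0.562 and 1.14 CPM in the transgenic section, which overlapped. Top2a was the only one of the 8 members past 1.5-fold in either direction. That call was not kept in 4 of the 11 alternative settings: the log2 ratio was -0.44 away from the tissue edge, -0.22 in the spots poorest in erythroid genes, -0.30 as a mean over spots and -0.43 with 1 CPM added. At the edge of the control section 8 Top2a UMIs were counted in 230 spots, or 3.97 CPM, against 18 UMIs and 1.46 CPM in 1026 interior spots. This log2 difference of 1.45 had an interval of 0.04 to 2.72, and in the transgenic section the same comparison gave 0.03 (-2.09 to 1.83) on 4 and 10 UMIs. Over the 8 genes, both sections, and the edge and cardiomyocyte splits, the control edge interval of Top2a was the only one without 0. Among so many comparisons such an interval says little.

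As a share within a section, which the scaling between sections cannot move, Top2a made up 1.67% of Top2a and Top2b UMIs in control tissue (26 of 1557, interval 1.09 to 2.44) and 1.05% in the transgenic section (14 of 1332, 0.576 to 1.76). The intervals overlapped. Because the number of probes per gene was not given in the sources used here, the share was compared between sections and not read as a ratio of transcripts. Cell division genes other than Top2a summed to 164 CPM (123 to 215) in the 26 control spots with a Top2a UMI and to 147 CPM (141 to 153) in the other spots. In the transgenic section the sums were 170 CPM (118 to 236) in 14 spots and 123 CPM (117 to 130) elsewhere. For these sums the intervals overlapped in both sections, and spots with a Top2a UMI were deeper, at medians of 12693 against 11315 and 16095 against 14492 UMIs. After thinning the sums were 184 CPM in 16 spots against 145 CPM in the control, and 246 CPM in 6 spots against 122 CPM in the transgenic section. Marker lists also differed. In the transgenic section fibroblast genes summed to 8167 CPM (7781 to 8566) in spots with a Top2a UMI and 6342 CPM (6298 to 6385) elsewhere. Macrophage genes summed to 782 CPM (666 to 912) and 629 CPM (615 to 642), and mural genes to 1641 CPM (1471 to 1826) and 1258 CPM (1239 to 1278). Cardiomyocyte genes were lower in spots with a Top2a UMI, at 48742 against 53294 CPM, as were erythroid genes, at 14090 against 20540 CPM. Across the quadrants of that section the fibroblast sum ran from 4698 to 8061 CPM, the macrophage sum from 544 to 699 CPM and the mural sum from 1177 to 1382 CPM. Cardiomyocyte sums ran there from 48827 to 56824 CPM and erythroid sums from 7868 to 47897 CPM. The intervals of these sums cover counting error and not the spread between spots, and a difference beyond that spread was not tested. In the control the fibroblast sums were 2420 CPM (2254 to 2596) and 2077 CPM (2053 to 2101), while the macrophage intervals overlapped. Control erythroid sums were 1875 CPM (1729 to 2031) and 2152 CPM (2128 to 2177). After thinning this control order turned, at 2682 CPM in 16 spots with a Top2a UMI against 1713 CPM elsewhere. The transgenic erythroid order was kept, at 4918 CPM in 6 spots against 12916 CPM. The part of these cell types in the Top2a counts was not tested.

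Top1 (ENSMUSG00000070544), the main nuclear type IB enzyme that relaxes DNA ahead of and behind transcription, was lower in the transgenic section. It had 505 UMIs and 35.1 CPM (32.1 to 38.3) in control tissue, and 325 UMIs and 25.1 CPM (22.4 to 28.0) in the transgenic section. The control quadrants held 31.0, 37.2, 37.1 and 35.2 CPM, and the transgenic quadrants 25.7, 19.9, 29.2 and 25.8 CPM. All 4 transgenic quadrants lay below all 4 control quadrants.

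The log2 ratio of Top1 was -0.49 (-0.69 to -0.28), or 1.40-fold lower, and 15.4% of tested genes had a lower ratio. Relative to the median of all tested genes it stood at -0.69. With the scaling factors of edgeR (TMM) and DESeq2 the ratio was -0.64, which passes 1.5-fold, while the distance from the median of all genes is the same by construction. By region the ratio was -0.60 (-1.05 to -0.14) at the tissue edge, -0.47 (-0.71 to -0.24) in the interior, -0.39 (-0.68 to -0.11) in the cardiomyocyte-rich spots and -0.59 (-0.90 to -0.29) in the cardiomyocyte-poor spots. Thus Top1 was lower in each region, and the regional intervals overlapped each other.

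Despite deeper spots in the transgenic section, Top1 was found in 31.1% of control spots and 30.1% of transgenic spots, and in 22.5% and 19.1% after thinning. Within a section, the log2 ratio of Top1 in cardiomyocyte-rich over cardiomyocyte-poor spots had an interval that held 0, at a value of -0.03 (-0.29 to 0.23) in control tissue and 0.17 (-0.15 to 0.50) in the transgenic section. In the control section 865 spots held 0 Top1 UMIs and 15 held 3, against 846 and 10.4 expected at a constant share, and in the transgenic section 646 and 8, against 654 and 5.54. Moran's I of Top1 was 0.00 and 0.01.

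**Figure D3:**
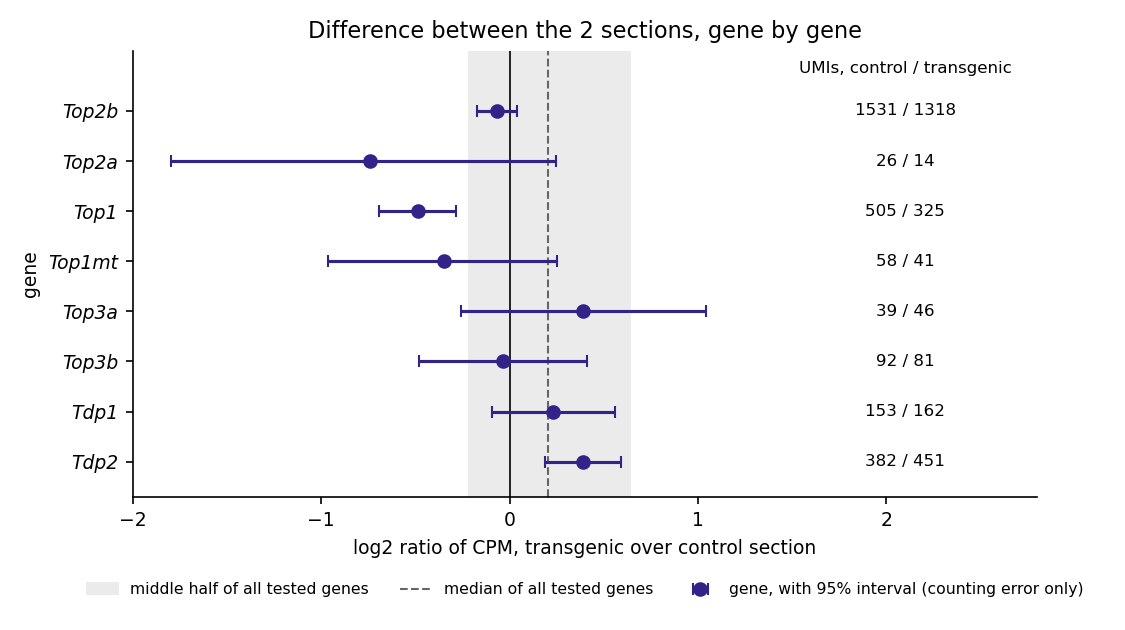
Log2 ratio of CPM, transgenic over control section, for each gene, with its exact 95% binomial interval (counting error only) and its UMIs in both sections on the right. The grey band is the interquartile range of all 15236 tested genes and the dashed line their median, 0.20. Top1 lies wholly below 0 and below the dashed line. Tdp2 lies wholly above 0, but its interval holds the dashed line. The Top2b interval holds 0 and lies wholly below the dashed line, and the intervals of the other 5 genes hold both 0 and the dashed line.

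Top1mt (ENSMUSG00000000934), the type IB enzyme of mitochondrial DNA, had 58 UMIs or 4.03 CPM (3.06 to 5.22) in control tissue and 41 UMIs or 3.17 CPM (2.27 to 4.29) in the transgenic section. Its log2 ratio was -0.35 (-0.96 to 0.25). Quadrants ran from 2.96 to 6.52 CPM in the control and from 2.53 to 3.88 CPM in the transgenic section, so a difference was not detectable at this depth. Top1mt made up 10.3% of Top1 and Top1mt UMIs in the control (7.92 to 13.1) and 11.2% in the transgenic section (8.16 to 14.9), and the intervals overlapped.

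The type IA enzymes gave few UMIs. Top3a (ENSMUSG00000002814), which acts in the nucleus with Blm and also unlinks mitochondrial DNA, had 39 UMIs or 2.71 CPM (1.93 to 3.71) in control tissue and 46 UMIs or 3.55 CPM (2.60 to 4.74) in the transgenic section. The log2 ratio was 0.39 (-0.26 to 1.04), with control quadrants at 1.62, 3.14, 4.03 and 2.07 CPM and transgenic quadrants at 3.50, 3.60, 3.93 and 3.04 CPM. The quadrants overlapped, and the control values spread more widely. Among the cardiomyocyte-rich spots the ratio was 0.86 (-0.12 to 1.89), past 1.5-fold on 15 and 25 UMIs, and among the cardiomyocyte-poor spots it was -0.01 (-0.93 to 0.89).

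Top3b (ENSMUSG00000022779), which can act on RNA as well as DNA, had 92 UMIs or 6.40 CPM (5.16 to 7.85) and 81 UMIs or 6.25 CPM (4.97 to 7.77). Its log2 ratio of -0.03 (-0.48 to 0.41) was the smallest in size of the 8 genes. It became 0.13 (-0.39 to 0.64) away from the tissue edge and -0.71 (-1.68 to 0.27) at the edge, the latter on 19 and 21 UMIs. Quadrants ran from 4.45 to 8.64 CPM in the control and from 3.81 to 8.73 CPM in the transgenic section, a nearly identical spread. Top3a made up 29.8% of the UMIs of the pair in the control (22.1 to 38.4) and 36.2% in the transgenic section (27.9 to 45.2).

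Of the enzymes that free trapped topoisomerases, Tdp2 (ENSMUSG00000035958), which cleaves the bond left by type II enzymes, was higher in the transgenic section. It had 382 UMIs and 26.6 CPM (24.0 to 29.4) in control tissue and 451 UMIs and 34.8 CPM (31.7 to 38.2) in the transgenic section. Control quadrants held 25.6, 27.2, 26.5 and 27.0 CPM, and transgenic quadrants 34.0, 36.3, 34.6 and 34.1 CPM. All 4 transgenic quadrants lay above all 4 control quadrants, and the spread within either section was narrow.

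For Tdp2 the log2 ratio was 0.39 (0.19 to 0.59), or 1.31-fold. The interval lay above 0 but held the median of all tested genes, from which Tdp2 stood at 0.19, and 61.8% of tested genes had a lower ratio. Its ratio was 0.34 (-0.13 to 0.83) at the edge, 0.40 (0.17 to 0.63) in the interior, 0.40 (0.12 to 0.67) in the cardiomyocyte-rich spots and 0.38 (0.09 to 0.68) in the cardiomyocyte-poor spots. A Tdp2 UMI was present in 25.6% of control and 38.0% of transgenic spots, and in 20.6% and 24.5% after thinning. Within a section, the log2 ratio of Tdp2 in cardiomyocyte-rich over cardiomyocyte-poor spots had an interval that held 0. It was 0.10 (-0.20 to 0.40) in control tissue and 0.11 (-0.16 to 0.39) in the transgenic section.

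Tdp1 (ENSMUSG00000021177), which cleaves the bond left by type IB enzymes, had 153 UMIs or 10.6 CPM (9.02 to 12.5) in control tissue and 162 UMIs or 12.5 CPM (10.7 to 14.6) in the transgenic section. The log2 ratio of 0.23 (-0.09 to 0.56) lay 0.03 from the median of all tested genes. Control quadrants were at 11.6, 11.8, 8.93 and 10.1 CPM and transgenic quadrants at 13.7, 12.7, 10.7 and 13.3 CPM, which overlapped. In the spots poorest in erythroid genes the Tdp1 ratio was 0.59, past 1.5-fold. Tdp1 made up 28.6% of Tdp1 and Tdp2 UMIs in the control (24.8 to 32.6) and 26.4% in the transgenic section (23.0 to 30.1).

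**Figure D4:**
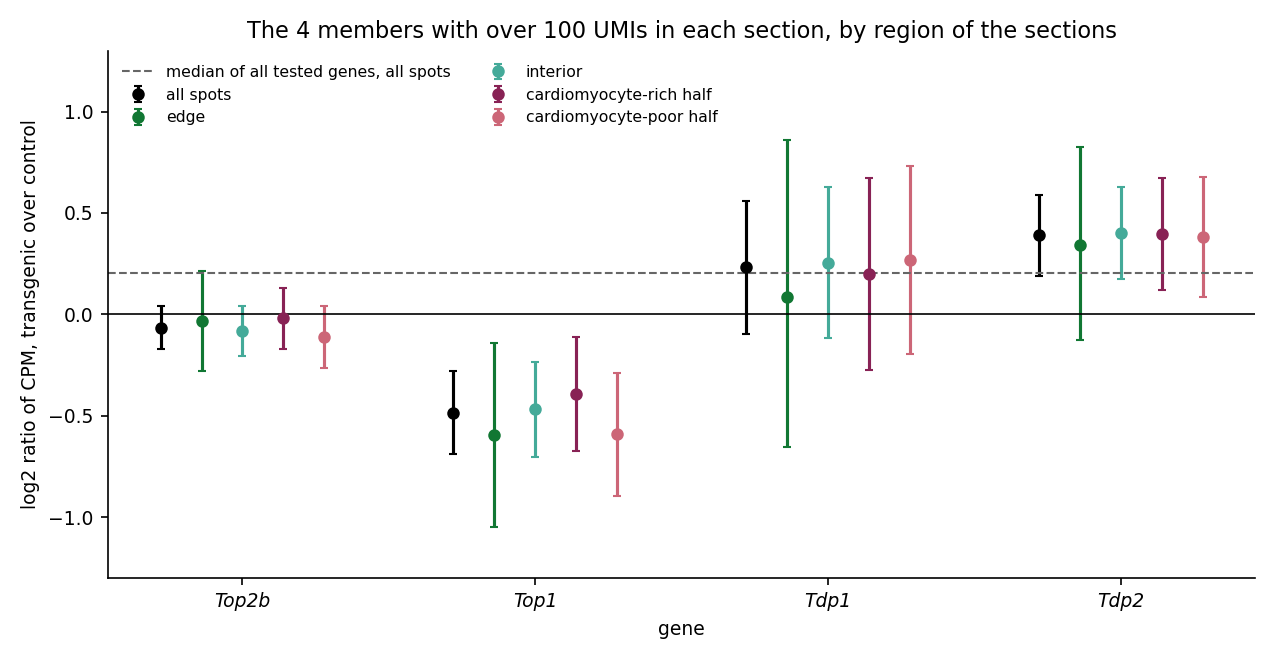
Log2 ratio of CPM, transgenic over control, for the 4 genes with over 100 UMIs in each section, in all spots, in edge and interior spots and in the cardiomyocyte-rich and cardiomyocyte-poor spots; bars are exact 95% binomial intervals. Top1 lies below 0 in every region, from -0.39 to -0.60, Tdp2 above 0 in each, from 0.34 to 0.40, and Top2b stays between -0.11 and -0.02.

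Across the 8 genes, 3 had a higher and 5 a lower CPM in the transgenic section, so 37.5% had a ratio above 0, against 63.2% of all tested genes. Their median log2 ratio was -0.05, or -0.25 relative to all tested genes. Past 1.5-fold, 0 members were higher, against 27.4% of all tested genes, and 1 (Top2a) was lower, against 12.9%. With TMM scaling 20.7% of tested genes were higher and 17.2% lower, and 2 members, Top2a and Top1, were past 1.5-fold, both lower. In 1 member (Tdp2) the 4 transgenic quadrants lay above the 4 control quadrants, as for 30.3% of tested genes, and in 1 (Top1) they lay below, as for 13.1%. A count of 1 of 8 genes is 12.5%, near the background in the lower direction and under it in the higher one. The summed level of the 8 genes was 194 CPM in control tissue and 188 CPM in the transgenic section.

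The quadrant profile of Top2b over both sections was most like that of Tada2b, an adaptor of a histone acetyltransferase complex (Pearson r of log2 CPM 0.93), Pnpla8, a phospholipase (0.91), and Npepps, a cytosolic aminopeptidase (0.90), among 6790 genes with at least 200 UMIs in each section. For Top1 the nearest were Sumo2, a ubiquitin-like modifier (0.98), Hdac2, a histone deacetylase (0.98), and Bzw2 (0.98). Each r describes 8 quadrants, which share 2 libraries and their depth. The genes were picked as the highest of 6790, a choice that by itself favours high values, and no reference for such picks was computed. The log2 ratios of these genes were -0.16, -0.09 and -0.29 for the set like Top2b, and -0.22, -0.15 and -0.62 for the set like Top1.

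Among the 5 proteins that work in complexes with the type IA enzymes, Fmr1 had the highest ratio and Rmi2, described below, the lowest. Of all tested genes 94.4% had a lower ratio than Fmr1 and 2.70% a lower ratio than Rmi2. Fmr1, the RNA-binding protein found with Tdrd3 and Top3b, had 353 UMIs and 24.6 CPM in control tissue and 956 UMIs and 73.8 CPM in the transgenic section, which gave a log2 ratio of 1.59 (1.41 to 1.77). Its quadrants ran from 21.0 to 29.0 CPM in the control and from 68.3 to 78.5 CPM in the transgenic section, and spots with an Fmr1 UMI made up 24.2% and 62.0%. Tdrd3, the scaffold that joins Fmr1 to Top3b, was at 25.2 and 31.8 CPM (log2 ratio 0.34, 0.13 to 0.54). Top3b itself, as given above, differed by -0.03.

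Rmi2, a subunit of the complex of Top3a with Blm and Rmi1, was the lowest partner, with 61 and 22 UMIs, 4.24 and 1.70 CPM, and a log2 ratio of -1.32 (-2.10 to -0.60). Its partners in that complex gave intervals that held 0, at -0.04 (-0.38 to 0.29) for Rmi1 and 0.15 (-0.59 to 0.89) for the helicase Blm. The partner list as a whole had 3 genes higher (60.0%, against 63.2% of all tested genes) and 2 lower. Past 1.5-fold were 1 higher and 1 lower of the 5 (20% each way, against 27.4% and 12.9% of all tested genes), with a median of 0.15 beside 0.20 for all tested genes.

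Other genes of adduct repair, which degrade or excise a trapped protein and mend the break, had a median log2 ratio of 0.05, which is -0.15 relative to all tested genes. Of 24 listed genes 23 were measured (Gcna was not analysed here), 17 were higher (73.9%, against 63.2% of all tested genes) and 6 lower. Past 1.5-fold were 3 higher (13.0%) and 1 lower (4.35%), shares below the 27.4% and 12.9% of all tested genes. The highest was Rnf4, a ubiquitin ligase for SUMO-tagged proteins, at 25.5 and 41.9 CPM (log2 ratio 0.72, 0.52 to 0.91), followed among the abundant genes by Ercc4, a subunit of a repair endonuclease, at 19.7 and 29.9 CPM (0.60, 0.38 to 0.83). The lowest was Mre11a, the nuclease of the complex that trims blocked ends, at 8.21 and 5.02 CPM (-0.71, -1.17 to -0.26). For Rnf4 and Ercc4 all transgenic quadrants lay above the control quadrants, and for Mre11a all lay below. Over the list 17.4% of genes had all quadrants above, against 30.3% of all tested genes, and 13.0% had all below, against 13.1%.

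End joining genes, which reseal double-strand breaks, had a median log2 ratio of 0.01, or -0.19 relative to all tested genes. Among 7 genes with at least 20 UMIs, 4 were higher (57.1%, against 63.2% of all tested genes) and 3 lower. Past 1.5-fold were 2 higher (28.6%, against 27.4%) and 1 lower (14.3%, against 12.9%). Xrcc5, a subunit of the Ku end-binding dimer, was the highest at 3.76 and 6.25 CPM (log2 ratio 0.74, 0.22 to 1.26). Lig4, the ligase of the pathway, was the lowest at 9.88 and 6.10 CPM (-0.70, -1.11 to -0.29). Prkdc had 0 and 4 UMIs, and Tp53bp1 was not analysed here.

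Cell division genes, the usual company of Top2a, gave a median of 0.15 over 25 genes with at least 20 UMIs, or -0.05 relative to all tested genes. Of these 15 were higher (60.0%, against 63.2% of all tested genes) and 10 lower, with 6 higher (24.0%, against 27.4%) and 4 lower (16.0%, against 12.9%) past 1.5-fold. The sign of the median depended on the genes and spots taken: it was -0.63 over the 6 genes with at least 200 UMIs, -0.10 in the cardiomyocyte-rich spots and -0.11 away from the tissue edge. Mki67, the common marker of cycling cells, had 74 and 69 UMIs, at 5.15 and 5.33 CPM. Cenpf, a kinetochore protein, was the lowest, with 354 UMIs and 24.6 CPM in control tissue and 25 UMIs and 1.93 CPM in the transgenic section, for a log2 ratio of -3.67 (-4.32 to -3.09). A Cenpf UMI was in 23.2% of control spots, against 5.33% for Mki67, so the 2 genes were unlike in spread there. Whether the Cenpf difference involves dividing cells was not tested. Bub1b, a checkpoint kinase, was the highest on 6 and 16 UMIs (1.57, 0.14 to 3.21). Top2a, at -0.74, lay below the list's median, within the range of its members.

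Mitochondrial DNA maintenance genes, which include Top3a, were mostly lower in the transgenic section. Of 19 measured genes 4 were higher (21.1%, against 63.2% of all tested genes) and 15 lower. Past 1.5-fold were 0 higher, against 27.4%, and 8 lower (42.1%, against 12.9%). All transgenic quadrants lay below the control quadrants in 10 genes (52.6%, against 13.1%). The median was -0.34, or -0.54 relative to all tested genes. With TMM scaling it was -0.50, and the medians of the partner, other adduct repair, end joining and cell division lists were -0.01, -0.10, -0.15 and -0.01, so the sign of those 4 medians turned with the scaling. The lowest was Mgme1, an exonuclease of the mitochondrial replication machinery, at 23.4 and 9.19 CPM (log2 ratio -1.35, -1.67 to -1.05). Top3a, at 0.39, was the highest of the list, while Top1mt, which acts on the same DNA and was not in the list, was at -0.35.

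**Figure D5:**
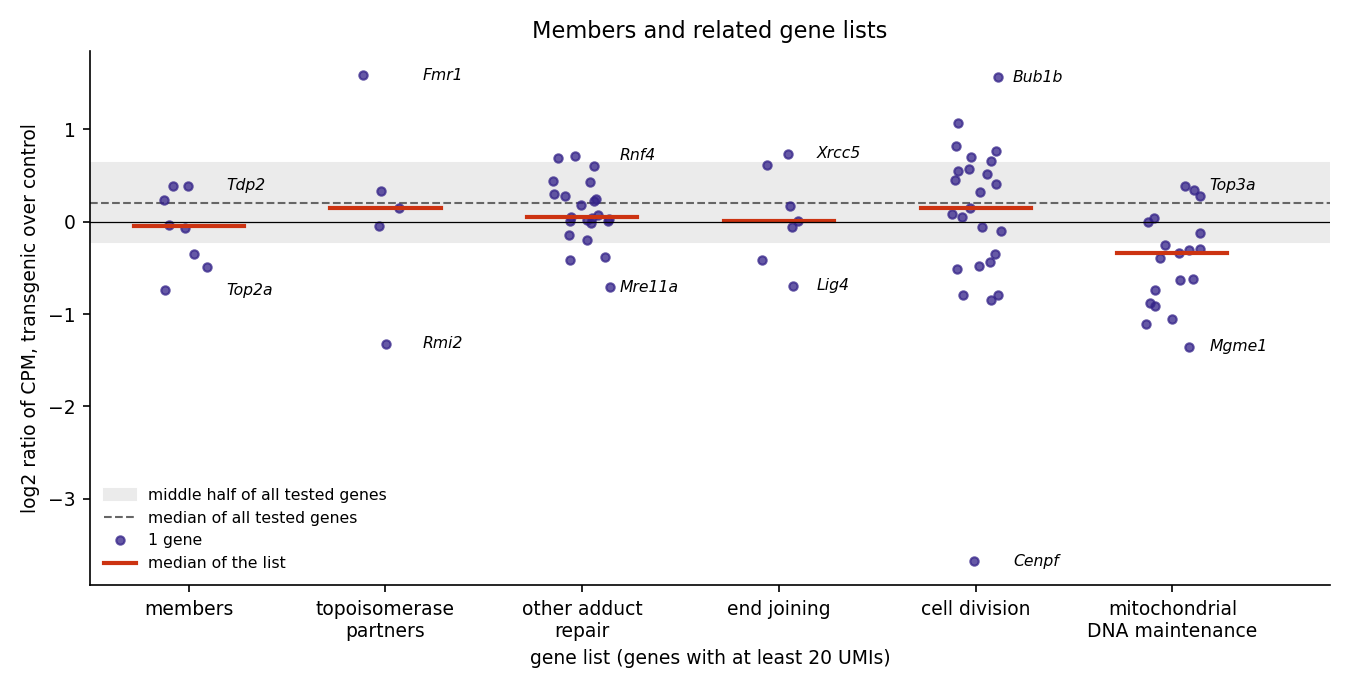
Log2 ratio of CPM, transgenic over control, for the 8 genes and 5 related lists, 1 point per gene with at least 20 UMIs; red bars are list medians, the dashed line is the median of all tested genes and the grey band their interquartile range. Top3a is also a gene of the mitochondrial list. The 8 genes lie between -0.74 and 0.39, Fmr1 and Rmi2 mark the ends of the partner list, and Cenpf is the lowest point drawn. The mitochondrial list has the lowest median, -0.34.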

How the data were processed

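Per the file headers, the deposited counts are UMI counts per gene and spot over tissue, made by the authors with Space Ranger 2.0.0. The submitters' processing notes name GRCm39 (mm39) as the genome. The authors also deposited Moran's I per gene, a score of spatial clustering, and spot positions. The deposited matrix holds only spots over tissue and 19465 genes. No count was normalised before deposit as far as the files show, and deposited gene totals equalled the sums of the matrix for all genes.

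CPM is a gene's UMIs over all spots of a section per 1000000 UMIs of that section. Poisson intervals, Clopper-Pearson intervals for shares and exact conditional binomial intervals for ratios are at 95% (Python 3.11.15, numpy 2.4.6, scipy 1.17.1, pandas 2.3.3). The ratio intervals were tested on simulated Poisson counts and held the true ratio for 95.2% of 189 changed and 96.6% of 1940 unchanged genes. That is the model the intervals assume, without variation between spots or animals, so the simulation checks the calculation only. The other intervals were not simulated. Since spots and quadrants of 1 section are not replicates, no test between genotypes was made, and no p-value is given. A call is 1.5-fold by CPM (log2 0.58), over genes with at least 20 UMIs. Quadrants were split at the median array row and column. Edge spots lacked at least 1 of 6 neighbours over tissue. Cardiomyocyte-rich and cardiomyocyte-poor spots were the upper and lower ranks, of equal size, by share of UMIs from the cardiomyocyte list. How far that share differed between them is not given here, and a difference between cell types was not tested. The sections share 725 barcodes, which are array positions and not cells. 1 transgenic spot had 0 UMIs. Scaling alternatives used edgeR 4.0.16 and DESeq2 1.42.0 in R 4.3.3.

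The members and lists were chosen with earlier results of these data known. Genes were named by rule: all 8 members; of each related list the highest and lowest log2 ratio; partners and repair genes with at least 200 UMIs in a section that passed 1.5-fold; and the 3 genes most like Top2b and Top1 across quadrants, after adding 0.5 CPM. Tdrd3, Rmi1, Blm, Mki67 and Prkdc were added to these after their values were seen. Listed genes not analysed here were Gcna, Tp53bp1, Ccnb1, Cdc20, Rrm2, Ssbp1, Actc1, Hba-a1, Ahsp and Xist. Promoters came from RefSeq (GRCm38.p6), and 5 of 8 members matched (not Top1mt, Top3a or Tdp2); no coordinate of another build was used with them.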

Additional observations from a re-analysis of the deposited data

How the results depend on the processing

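Every member's log2 ratio was recomputed under 11 alternatives: other scalings, other sets of spots, a mean over spots and an added CPM. One of them, leaving out spots with over 10% erythroid UMIs, was chosen after seeing the data, as was the total without erythroid UMIs inside those spots, which moved Top2b there from 50.8 to 111 CPM and Tdp2 from 23.7 to 51.7 CPM. Over the main and alternative settings Top1 ranged from -0.64 to -0.39, Top1mt from -0.51 to -0.19, Top2a from -1.14 to -0.22, Top3a from 0.23 to 0.86, Tdp1 from 0.08 to 0.59 and Tdp2 from 0.23 to 0.42, each with its sign kept. Edge spots and cardiomyocyte-poor spots were not among these settings. There the sign turned for Top1mt at the edge, at 0.26 (-1.23 to 1.94), and for Top3a in cardiomyocyte-poor spots, at -0.01 (-0.93 to 0.89). At the edge Top2a, at -1.85 (-4.04 to 0.05), and Top3b, at -0.71 (-1.68 to 0.27), also lay outside their ranges over the settings. Top2b ranged from -0.22 to 0.01 and Top3b from -0.30 to 0.13, each above 0 in 1 of 12 settings (erythroid-poor spots and interior spots). Scaling moved the median of all tested genes from 0.20 to 0.05 (TMM and DESeq2) or 0.12 (totals without the 50 most abundant genes). Beyond its counting interval, Top2b moved to -0.22 with TMM and to -0.22 with DESeq2, staying at -0.27 relative to all tested genes. Tdp1 moved to 0.59 in the spots poorest in erythroid genes; the cause was not tested. The median of other adduct repair genes moved from 0.05 to -0.10 (TMM), -0.10 (DESeq2) and -0.033 (totals without the 50 most abundant genes). The median of cell division genes moved to -0.63 over the 6 genes with at least 200 UMIs, a smaller set that includes Cenpf. At 2-fold in place of 1.5-fold the members called lower numbered 0. The other 180 list, member and share values stayed within their intervals or counts. Many could hardly leave them. A scaling alternative shifts every gene by the same amount, and keeping spots with at least 1000 UMIs barely moved a ratio (Top1 -0.49 in both). For Top2a, Top1mt, Top3a and Top3b, with few UMIs and wide intervals, staying within says little. The same holds for the medians of the short lists (partners, end joining and members, with 5, 7 and 8 genes). The intervals of these medians were wide enough to hold a change of sign. With TMM the partner median went from 0.15 to -0.01 and the end joining median from 0.01 to -0.15. In interior spots the median of the members went from -0.05 to 0.02. These values were counted as within the interval, so the count does not show that such medians are stable. Thinning lowers the depth of spots by design, and so lowers the share of spots with a UMI. It moved 13 of 16 such shares beyond their intervals.

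Depth limits Top2a, Top1mt and Top3a most, with under 60 UMIs a section. No paired analysis was possible because each genotype had 1 section and no test was made.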
